A study of Homo sapiens with 9 samples.

Results

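Gene expression at the end of sequential activin and HGF treatment was compared with that of untreated HCT116 cells, an established human colorectal carcinoma line. Every gene of the deposited table was a candidate, and 20988 of its 33861 genes had enough counts to be tested. The 3 control libraries came from HCT116 cells that the labels call NC. The 3 activin + HGF libraries came from HCT116 cells given activin A at 100 ng/mL for 5 days and then HGF at 20 ng/mL for another 5 days. No genetic change is named for either group, both were kept in the same serum-containing medium, and the time for which control cells were cultured is not stated. The 3 libraries of cells given activin alone entered the model, and their values are set beside the others by step. The activin step is activin against control, and the HGF step is activin + HGF against activin. By the stated schedule the activin + HGF cells were also cultured 5 days longer than the activin cells. HGF and time therefore cannot be told apart in the HGF step, and whether activin stayed in the medium then is not stated. Nothing says that the libraries of a group came from separate cultures, so each p-value measures the spread between these libraries, which may be technical.

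Activin A is a ligand of the TGF-beta family that acts through SMAD2 and SMAD3, and it is used to drive stem cells toward endoderm, the germ layer of gut and liver. HGF binds the receptor tyrosine kinase MET, switches on the RAS-ERK pathway, and acts on hepatoblasts, the progenitors of hepatocytes and bile duct cells. Hepatocytes secrete most plasma proteins under factors such as HNF4A and C/EBP proteins, while intestinal epithelium is specified by CDX1 and CDX2. Cells that leave the cycle lower the genes of DNA replication, which E2F factors control, and those of mitosis, which carry CHR and CCAAT elements in their promoters.

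The libraries held between 57453977 and 77016167 counts in the control group and between 69559061 and 74314387 in the activin + HGF group. Values are given as CPM, a gene's counts relative to the size of its library after edgeR's trimmed mean scaling. A log2 fold change is printed as activin + HGF against control, with its standard error after ±. A gene was called when its adjusted p was under 0.05 and its fold change at least 2 (a log2 fold change of 1). By this rule 2378 genes (11.3% of those tested) were higher and 2141 (10.2%) were lower after activin + HGF, together 21.5%, and each share is the background for the gene groups that follow. The share of calls that were higher was 52.6%, but 33.4% when libraries were scaled by their totals and 31.1% from FPKM, the deposited values that are also scaled by transcript length, which moved the median of all genes from -0.03 to -0.30 and -0.29 on the log2 scale. Activin + HGF library 1 stood apart: the mitochondrial rRNA MT-RNR2 took 4.49% of its counts, and heat shock, sterol and histone genes were several times higher there than in libraries 2 and 3. For part of the results whose call or size rested on it, the value without it is given as well. A result printed without such a value may still depend on that library. Where the values of a called gene are listed below, the 3 control and the 3 activin + HGF libraries did not overlap. Low counts fell on multiples of 4 more often than evenly spread counts would (35% against 25% of 77671 counts between 1 and 40), so that 12 counts were treated as the floor for a bound on a fold change.

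Epithelial markers other than CDH17 and VIL1 were high in all 6 libraries. KRT8 was at 1350, 1070 and 1321 CPM in control and 1833, 1318 and 1546 CPM in activin + HGF libraries. The summed level of the 7 epithelial markers was 2644 to 2914 CPM in the control and 3569 to 3938 CPM in the activin + HGF libraries. None of the 7 was called, and VIL1, a marker of the intestinal brush border, had at most 12 counts in any of the 6 libraries. CDH17 had at most 12 counts in control and at most 36 in activin + HGF libraries. Of the 4 fibroblast markers tested 0 were higher and 2 lower, with a median log2 fold change of -0.93. Their sum was 25.7 to 28.1 CPM in control and 34.0 to 41.9 CPM after treatment, most of it COL1A1, while COL3A1 went from at most 212 to at most 27 counts and PDGFRA from at most 98 to 0 counts. The sum of the 3 endothelial markers tested was at most 2.01 CPM in either group. Of the 4 blood markers tested 2 were higher and 0 lower, CD68 and LYZ. PTPRC and CD3E, which were not tested, had 0 counts in the control libraries and at most 11 counts after activin + HGF. LYZ went from at most 19 to at most 79 counts, a call that leaving out any 1 of 4 libraries removed. CD68, which is also a lysosomal membrane protein, was at 2.99, 1.64 and 1.23 CPM in control and 22.6, 20.6 and 16.4 CPM in activin + HGF libraries (log2 fold change 3.35 ± 0.42, edgeR adjusted p = 3.4e-04). In bulk RNA, fewer cells of a type and less RNA per cell cannot be told apart.

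Liver genes moved unevenly. Genes of secreted plasma proteins were higher but mostly at very low levels, and a minority of progenitor genes were higher at moderate levels. Of hepatocyte enzyme, transporter and receptor genes 16.7% were called, against 21.5% of all genes. The plot of gene lists by library shows the median of each list in all 9 libraries.

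**Figure D1:**
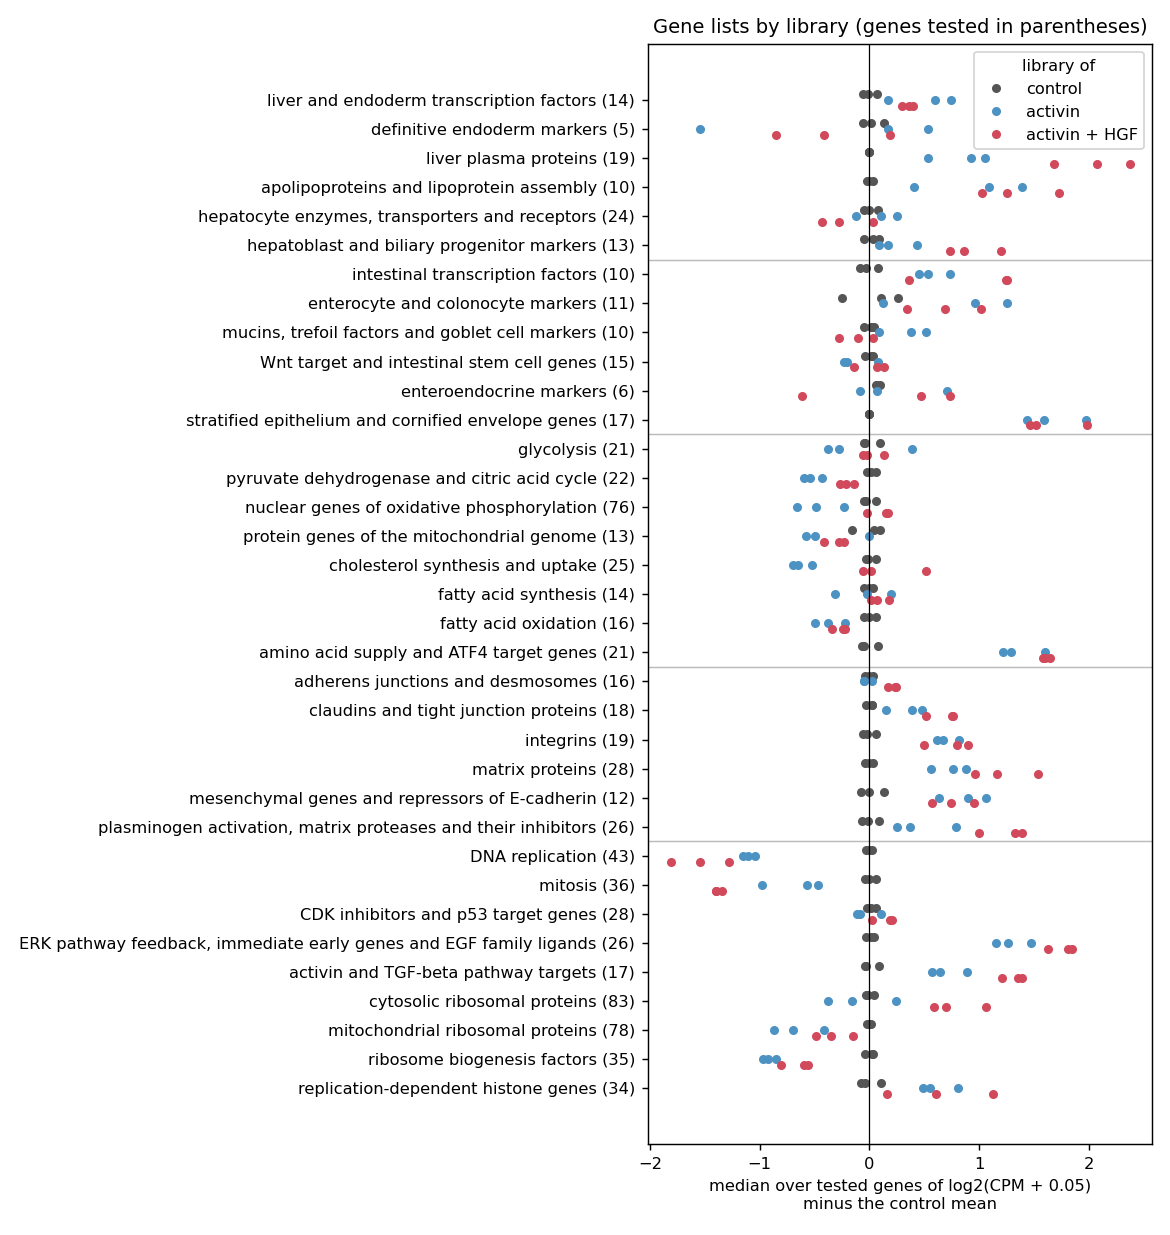
Median over the tested genes of each list (number in parentheses) of log2(CPM + 0.05) minus the mean of the control libraries, with 1 point per library in grey (control), blue (activin) and red (activin + HGF). Plasma proteins, ATF4 targets, ERK pathway genes and matrix proteases lie to the right of the control points after activin + HGF, and DNA replication and mitosis to the left.

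Plasma protein genes had the highest median of the liver lists. Of 34 listed genes 19 could be tested, 11 were higher and 0 lower, and the median log2 fold change was 2.39 against -0.03 over all genes. All 3 control libraries lay at or under the floor of 12 counts for 6 of the 19. With these set to a bound if it had been computed, and left out otherwise, the median was 1.53. Only 4 of the 19 reached a mean of 1 FPKM after activin + HGF. Without any 1 of the 6 libraries 7 were higher, and without activin + HGF library 1 the median was 2.23. SERPINA1, the antitrypsin gene, was at 3.61, 4.73 and 4.6 CPM in control and 23.4, 13.8 and 15 CPM in activin + HGF libraries. Each activin + HGF library was above each control library (log2 fold change 2.01 ± 0.25, edgeR adjusted p = 3.2e-04). Most of this rise lay in the activin step, with a log2 fold change of 1.67 for activin against control and 0.34 for activin + HGF against activin. The coagulation factor genes F12 and F10, with AFP the members of highest FPKM, were not called, with log2 fold changes of 0.82 and 0.54.

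Albumin itself was barely detected. In control libraries ALB had 8, 33 and 4 counts, and after activin + HGF 65, 79 and 76. The groups did not overlap and the gene was called (log2 fold change 2.39 ± 0.79, edgeR adjusted p = 0.042), but leaving out any 1 of 5 libraries removed the call, and its mean level after treatment was 0.243 FPKM. APOA1, the main apolipoprotein of HDL, went from 4, 0 and 4 counts to 50, 42 and 46 counts (log2 fold change 4.22 ± 1.29, edgeR adjusted p = 0.031), a call from control counts under the floor that leaving out any 1 of the 6 libraries removed. APOB, the structural protein of lipoproteins, had 0 counts in every control library and 16, 27 and 15 counts after activin + HGF, at least 1.57-fold higher. Transthyretin, TTR, had 0 counts in 5 of the 6 libraries and 12 counts in activin + HGF library 1. The endoderm gene SOX17 has no row in the table used here.

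Among 10 apolipoprotein and lipoprotein assembly genes tested, 6 were higher and 0 lower, with a median log2 fold change of 1.38. It became 0.65 with the 3 genes at the control floor set to any computed bound or else left out. PLTP, which transfers phospholipids between lipoproteins, was at 3.01, 4.7 and 3.98 CPM in control and 11.3, 9.36 and 9.98 CPM in activin + HGF libraries. The groups were separate (log2 fold change 1.39 ± 0.26, edgeR adjusted p = 0.003), and the activin libraries were higher still, at 17.1, 28.8 and 18.7 CPM. LCAT, which esterifies cholesterol in HDL, was at 2.71, 3.49 and 3.06 CPM in control and 11.7, 7.21 and 4.96 CPM in activin + HGF libraries (log2 fold change 1.36 ± 0.33, edgeR adjusted p = 0.011), and its call was lost without activin + HGF library 1 or without control library 1.

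Of 20 liver transcription factors listed 14 were tested, 2 were higher and 1 lower, or 21.4% called, close to the 21.5% of all genes. The median was 0.43, and 4 were higher and 0 lower without activin + HGF library 1. CEBPB, a C/EBP factor of the acute phase response, was at 19.1, 28.8 and 26.4 CPM in control and 150, 241 and 275 CPM in activin + HGF libraries. The lowest activin + HGF value was far above the highest control value (log2 fold change 3.17 ± 0.29, edgeR adjusted p = 6.2e-05), and the larger part lay in the activin step (2.55 against 0.62 for the HGF step). GATA6, an endoderm factor, was at 6.4, 5.19 and 6.75 CPM in control and 11, 15.4 and 18.1 CPM in activin + HGF libraries (log2 fold change 1.28 ± 0.24, edgeR adjusted p = 0.0031). HNF4A, the factor most closely tied to the hepatocyte programme, was at 3.36, 3.02 and 2.49 CPM in control and 4.17, 3.58 and 2.11 CPM in activin + HGF libraries. Its groups overlapped and it was not called (log2 fold change 0.15 ± 0.37, edgeR adjusted p = 0.79). FOXA1 reached a log2 fold change of 1.00 without overlap, but before rounding it was under the limit, and FOXA2 never exceeded 28 counts. Of 5 definitive endoderm markers tested, 1 was higher (CXCR4) and 1 lower, and the median of 0.65 turned to -0.36 without activin + HGF library 1 and to -0.23 without library 3. The lower was EOMES, at 3.36, 4.31 and 3.86 CPM in control and 1.18, 1.58 and 2.11 CPM in activin + HGF libraries (log2 fold change -1.24 ± 0.36, edgeR adjusted p = 0.023), a call that leaving out any 1 of 4 libraries removed.

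Of 24 genes of hepatocyte enzymes, transporters and receptors tested, 3 were higher (12.5%, against 11.3% of all genes) and 1 lower, and the median was -0.52. It was -0.29 with 4 genes at the activin + HGF floor set to any computed bound or else left out. For that value 1 gene at the floor in both groups was left out too. With library totals 1 was higher and 3 lower, and among the 16 with at least 1 CPM the median was -0.01. ABCC2, the canalicular pump for conjugated bilirubin, was at 479, 355 and 472 CPM in control and 57.5, 73 and 69.7 CPM in activin + HGF libraries. The highest activin + HGF library lay far under the lowest control library, a 6.52-fold decrease (log2 fold change -2.71 ± 0.25, edgeR adjusted p = 6.5e-05). ASS1, which makes argininosuccinate in the urea cycle, moved the other way, at 128, 135 and 132 CPM in control and 304, 290 and 297 CPM in activin + HGF libraries (log2 fold change 1.18 ± 0.18, edgeR adjusted p = 0.0011). ASL, the next enzyme of the cycle, had a log2 fold change of -0.59 and was not called.

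Markers of hepatoblasts and biliary progenitors showed 5 higher and 0 lower of 13 tested, with a median of 1.01 and, without activin + HGF library 1, 3 higher and a median of 0.88. Without control library 1, and also with library totals, 3 were higher and 1 lower. SOX9, a factor of bile duct and intestinal progenitor cells, was at 72.2, 83.5 and 80.2 CPM in control and 208, 190 and 175 CPM in activin + HGF libraries (log2 fold change 1.28 ± 0.17, edgeR adjusted p = 4.5e-04). CD24 was at 15.3, 15.7 and 9.95 CPM in control and 45.5, 51.1 and 50.4 CPM in activin + HGF libraries (log2 fold change 1.84 ± 0.21, edgeR adjusted p = 2.1e-04). IGF2, a fetal growth factor, was at 26.1, 35.4 and 33.1 CPM in control and 79, 63.9 and 59.3 CPM in activin + HGF libraries (log2 fold change 1.10 ± 0.19, edgeR adjusted p = 0.0022), and without activin + HGF library 1 it fell short of the size limit, at 0.97. KRT19 and EPCAM, the most abundant members by FPKM, separated the groups but fell short of the size limit, with log2 fold changes of 0.74 and 0.70.

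**Figure D2:**
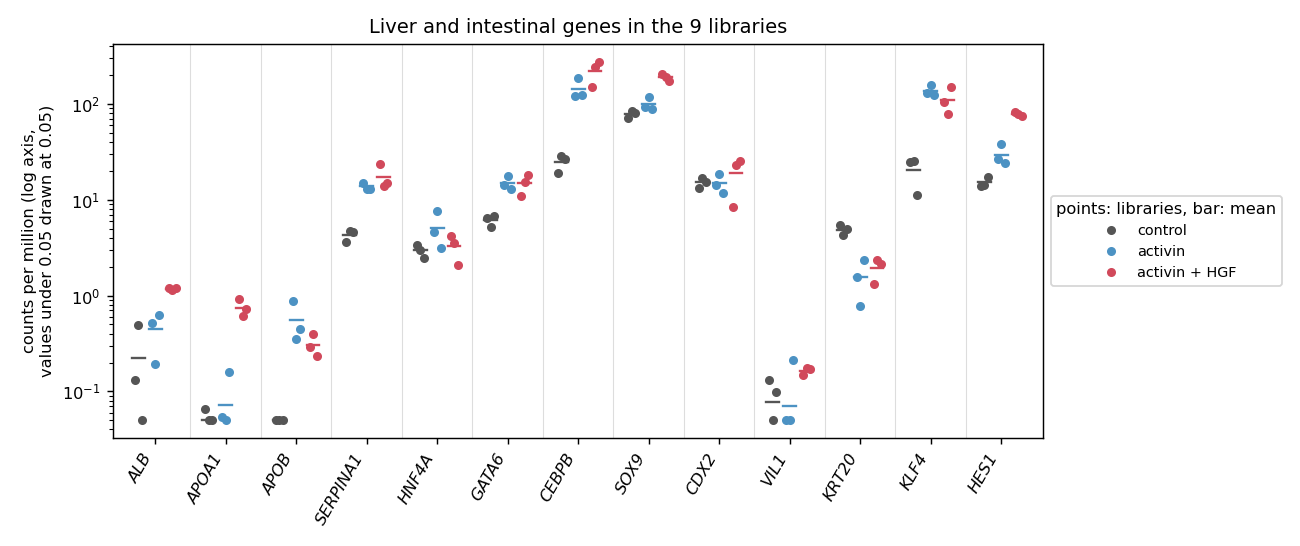
CPM (log axis) of liver genes, from ALB to SOX9, and intestinal genes, from CDX2 to HES1, with 1 point per library, a bar at each group mean, and values under 0.05 drawn at 0.05. ALB, APOA1 and APOB stay near or under 1 CPM in every library, CEBPB and SOX9 rise clear of control, and HNF4A and CDX2 overlap.

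Intestinal genes divided as well: several epithelial transcription factors were higher, while markers of mature cells stayed at low levels. Of 10 intestinal transcription factors tested 5 were higher and 0 lower (median 0.82). Leaving out a library gave 4 or 5 higher and medians of 0.33 to 1.23. KLF4, a factor of differentiated surface cells, was at 24.7, 25.2 and 11.3 CPM in control and 104, 77.9 and 150 CPM in activin + HGF libraries. All activin + HGF libraries were well above all control libraries (log2 fold change 2.44 ± 0.33, edgeR adjusted p = 5.7e-04). HES1, the Notch target that favours absorptive over secretory cells, was at 13.9, 14.4 and 17.4 CPM in control and 81.7, 79.3 and 75.5 CPM in activin + HGF libraries (log2 fold change 2.37 ± 0.21, edgeR adjusted p = 5.6e-05). The activin libraries were already above control, at 130, 159 and 124 CPM for KLF4 and 26.6, 37.8 and 24 CPM for HES1. KLF5, a factor of crypt cells, was at 89.5, 75.9 and 92.3 CPM in control and 238, 216 and 212 CPM in activin + HGF libraries (log2 fold change 1.37 ± 0.15, edgeR adjusted p = 1.6e-04). ELF3, an epithelial ETS factor, was at 98.6, 103 and 105 CPM in control and 184, 230 and 229 CPM in activin + HGF libraries (log2 fold change 1.07 ± 0.20, edgeR adjusted p = 0.0033). CDX2 was at 13.4, 17 and 15.4 CPM in control and 8.41, 23.1 and 25.1 CPM in activin + HGF libraries. Library 1 of activin + HGF lay under all control libraries and libraries 2 and 3 above them, so that the groups overlapped and there was no call (log2 fold change 0.30 ± 0.36, edgeR adjusted p = 0.56). CDX1 had 0 counts in all 6 libraries.

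Markers of mature intestinal cells stayed low. Of 31 enterocyte and colonocyte markers 11 were tested, 3 were higher (27.3%, against 11.3% of all genes) and 1 lower, with a median of 0.84. It was 0.52 with 3 genes at the control floor set to any computed bound or else left out. For that value 2 genes at the floor in both groups were left out too. Of the 11, 9 had a log2 fold change above 0, and 2 reached a mean of 1 FPKM after treatment. None of the 3 higher members reached a mean of 1 FPKM in either group. Without control library 1 only 1 was higher and 0 lower of 16 tested. KRT20, a keratin of differentiated colonocytes, was at 5.52, 4.24 and 4.91 CPM in control and 1.32, 2.36 and 2.12 CPM in activin + HGF libraries. All activin + HGF values were under all control values (log2 fold change -1.34 ± 0.41, edgeR adjusted p = 0.03), but leaving out any 1 of 5 libraries removed the call. CA2, carbonic anhydrase 2, had a log2 fold change of 0.45, which was not called. Of 10 mucin and goblet cell genes tested 2 were higher and 1 lower, with a median of -0.34 that was 0.0 in each fit without 1 library. With library totals 0 were higher and 3 lower, and without activin + HGF library 1 or control library 1 1 was higher. The higher ones were FCGBP and MUC3A. FCGBP, which is secreted with mucus, was at 8.35, 7.85 and 7.63 CPM in control and 19.8, 18.1 and 16.8 CPM in activin + HGF libraries (log2 fold change 1.20 ± 0.18, edgeR adjusted p = 9.7e-04). MUC3A, a membrane mucin, was at 26, 31.7 and 29.3 CPM in control and 68.4, 53.1 and 54.1 CPM in activin + HGF libraries (log2 fold change 1.01 ± 0.22, edgeR adjusted p = 0.0066), or 0.89 without activin + HGF library 1, short of the limit. MUC2, the gel-forming mucin of goblet cells, had at most 17 counts in any of the 6 libraries, and LGR5, the marker of crypt stem cells, at most 12.

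Wnt target and stem cell genes gave 2 higher and 1 lower of 15, or 20.0% called, close to the 21.5% of all genes. Their median of 0.11 turned to -0.19 with library totals. EPHB3, which positions cells along the crypt, was at 10.1, 11.5 and 10.7 CPM in control and 63.8, 35.2 and 34.2 CPM in activin + HGF libraries (log2 fold change 2.05 ± 0.30, edgeR adjusted p = 7.4e-04). CD44, SOX4 and RNF43, the members of highest FPKM, were not called. MYC was erratic, at 20.1, 26.2 and 21.3 CPM in control and 30.7, 16.1 and 151 CPM in activin + HGF libraries. Activin + HGF library 3 was several times the other 2, the groups overlapped, and there was no call (log2 fold change 1.55 ± 0.89, edgeR adjusted p = 0.21). The median of 6 enteroendocrine markers was 0.42, and -0.02 and -0.18 without activin + HGF library 1 and 2. PYY was the higher gene among them, at 0.278, 0.178 and 0.0249 CPM in control and 1.6, 1.86 and 1.59 CPM in activin + HGF libraries (log2 fold change 3.40 ± 0.67, edgeR adjusted p = 0.0038).

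Genes of stratified epithelium and the cornified envelope, which colonic cells normally lack, were higher in part. Of 17 tested 7 were higher and 0 lower, with a median of 2.30. It was 1.00 with 6 genes at the control floor set to any computed bound or else left out. For that value 2 genes at the floor in both groups were left out too. Without control library 1 or control library 3, or with only the 6 libraries compared in the fit, 4 were higher. SPRR2D, a small proline-rich envelope protein, had 0 counts in every control library and was at 27.2, 48.3 and 37.3 CPM in activin and 13, 13.7 and 13.5 CPM in activin + HGF libraries, at least 68.4-fold over control. KRT16, a keratin of stressed epidermis, was at 0.212, 0.178 and 0.77 CPM in control and 3.16, 6.06 and 5.83 CPM in activin + HGF libraries (log2 fold change 3.67 ± 0.57, edgeR adjusted p = 0.0011). KRT13, one of the 3 members of highest FPKM, overlapped and was not called (1.00).

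Lists of central carbon metabolism had medians near 0, while targets of the amino acid stress factor ATF4 were higher. Of 21 glycolysis genes 1 was higher and 1 lower, with a median of 0.13 that became -0.15 with library totals. PGAM1, phosphoglycerate mutase, was at 540, 654 and 525 CPM in control and 243, 242 and 273 CPM in activin + HGF libraries. All 3 treated libraries were close to each other and under control (log2 fold change -1.18 ± 0.19, edgeR adjusted p = 0.0014). SLC2A3, the glucose transporter GLUT3, was at 7.58, 6.97 and 5.95 CPM in control and 23.1, 21.5 and 21.6 CPM in activin + HGF libraries (log2 fold change 1.69 ± 0.18, edgeR adjusted p = 1.6e-04), with higher values after activin alone (40.6, 32 and 41.6 CPM). GAPDH, ENO1 and LDHB, the glycolytic genes of highest FPKM, had log2 fold changes of -0.52, -0.14 and -0.63 and were not called.

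Of 22 pyruvate dehydrogenase and citric acid cycle genes 1 was higher and 2 lower, with a median of -0.21, and with library totals 0 were higher and 4 lower. DLAT, the E2 subunit of pyruvate dehydrogenase, was at 99.8, 97.5 and 99 CPM in control and 22.9, 44.6 and 55.4 CPM in activin + HGF libraries (log2 fold change -1.27 ± 0.28, edgeR adjusted p = 0.0064), or -0.98 without activin + HGF library 1, short of the limit. FH, fumarase, was at 82.1, 79.3 and 75.3 CPM in control and 38.1, 34.3 and 41.6 CPM in activin + HGF libraries (log2 fold change -1.05 ± 0.16, edgeR adjusted p = 8.2e-04), a call lost without activin + HGF library 2. Among 76 nuclear genes of oxidative phosphorylation only CYCS, cytochrome c, was higher and only ATP5MF, a subunit of ATP synthase, was lower. The call of CYCS was lost without activin + HGF library 1 or control library 3. ATP5MF was at 85.5, 106 and 90.5 CPM in control and 30, 36 and 38.8 CPM in activin + HGF libraries (log2 fold change -1.43 ± 0.24, edgeR adjusted p = 0.0015). The median of these 76 was 0.10, with -0.47 for the activin step and 0.62 for the HGF step, and -0.17 when library totals were used for the end state.

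Mitochondrially encoded genes diverged from each other. Of 13 protein genes 3 were lower, 1 was higher, and the median was -0.24 (5 lower and 0 higher with library totals). MT-ND2, a subunit of complex I, was at 12910, 15618 and 15469 CPM in control and 1419, 3391 and 4020 CPM in activin + HGF libraries. The groups were far apart and activin + HGF library 1 was the lowest (log2 fold change -2.32 ± 0.32, edgeR adjusted p = 6.0e-04). MT-ND1, another complex I subunit, was at 10295, 12690 and 11877 CPM in control and 2116, 4892 and 5662 CPM in activin + HGF libraries (log2 fold change -1.46 ± 0.33, edgeR adjusted p = 0.0075). MT-ATP6, a subunit of ATP synthase, was at 18669, 13163 and 20791 CPM in control and 2927, 3270 and 3541 CPM in activin + HGF libraries (log2 fold change -2.43 ± 0.53, edgeR adjusted p = 0.0063), and its activin libraries ranged from 2831 to 19739 CPM. MT-ATP6 overlaps MT-ATP8, which had a log2 fold change of 0.99 and was not called, so how reads were shared between the pair is uncertain. MT-CO3 did not move by a called amount (-0.04), and MT-ND6, the 1 protein gene of the light strand, was at 1676, 2462 and 2066 CPM in control and 4506, 3793 and 4331 CPM in activin + HGF libraries (log2 fold change 1.03 ± 0.19, edgeR adjusted p = 0.0026). Without stated strand its reads cannot be told apart from antisense RNA, and leaving out any 1 of 3 libraries removed its call.

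Of 25 genes of cholesterol synthesis and uptake 3 were higher and 3 lower, shares close to those of all genes, with a median of 0.11, or -0.15 without activin + HGF library 1. INSIG1, which holds back sterol synthesis, was at 35.5, 36.4 and 43.9 CPM in control and 996, 253 and 229 CPM in activin + HGF libraries. All activin + HGF libraries were above control and library 1 was several times the others (log2 fold change 3.67 ± 0.53, edgeR adjusted p = 7.6e-04). Without that library the log2 fold change was 2.65. MSMO1, a sterol oxidase, was at 61.9, 52.9 and 64.3 CPM in control and 606, 171 and 150 CPM in activin + HGF libraries (log2 fold change 2.37 ± 0.46, edgeR adjusted p = 0.0037, and 1.43 without library 1). FDPS, which makes farnesyl diphosphate, was at 117, 132 and 130 CPM in control and 61.9, 51.9 and 45 CPM in activin + HGF libraries (log2 fold change -1.25 ± 0.20, edgeR adjusted p = 0.0011). ACAT2, which makes acetoacetyl-CoA, was at 66.5, 54.6 and 64.3 CPM in control and 33.5, 23.4 and 21.7 CPM in activin + HGF libraries (log2 fold change -1.24 ± 0.23, edgeR adjusted p = 0.0027). The list's activin and HGF steps had medians of -0.59 and 0.70.

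In fatty acid synthesis 2 of 14 genes were higher and 0 lower (median 0.22), against 2 higher and 4 lower with library totals (median -0.06). The higher genes were MID1IP1, an activator of acetyl-CoA carboxylase, at 59.7, 91.3 and 68.4 CPM in control and 187, 253 and 288 CPM in activin + HGF libraries (log2 fold change 1.73 ± 0.27, edgeR adjusted p = 0.001), and the elongase ELOVL1. SCD, FASN and ACLY, the members of highest FPKM, had log2 fold changes of -0.76, -0.10 and -0.86 and were not called. In fatty acid oxidation 1 of 16 was higher and 3 were lower, but 1 was lower without any 1 of the 3 control libraries. The higher gene was ACADVL, the very long chain acyl-CoA dehydrogenase, at 149, 138 and 128 CPM in control and 541, 380 and 395 CPM in activin + HGF libraries. The groups were well apart (log2 fold change 1.67 ± 0.19, edgeR adjusted p = 2.1e-04). HADH, a dehydrogenase of short chains and one of the lower genes, was at 35.4, 42.6 and 35.3 CPM in control and 13.5, 16.1 and 21 CPM in activin + HGF libraries (log2 fold change -1.16 ± 0.22, edgeR adjusted p = 0.0029).

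Amino acid supply and the targets of ATF4, the factor that answers amino acid shortage and unfolded protein, were higher as a group: 15 of 21 were higher and 0 lower, with a median of 1.56 (13 higher, median 1.54, without activin + HGF library 1). DDIT3, which encodes CHOP, was at 4.3, 5.56 and 4.85 CPM in control, 150, 232 and 167 CPM in activin and 194, 112 and 133 CPM in activin + HGF libraries. It was 29.8-fold the control at the end (log2 fold change 4.90 ± 0.28, edgeR adjusted p = 6.4e-06), with no called difference between activin and activin + HGF. CHAC1, which degrades glutathione, was at 6.22, 6.86 and 6.4 CPM in control and 46.7, 168 and 193 CPM in activin + HGF libraries. Every treated library was above control, and library 1 was the lowest of them (log2 fold change 4.39 ± 0.48, edgeR adjusted p = 1.6e-04). For ATF3 library 3, not library 1, was the lowest of the treated libraries. ATF3 was at 9.69, 8.57 and 8.06 CPM in control and 194, 193 and 75 CPM in activin + HGF libraries (log2 fold change 4.14 ± 0.53, edgeR adjusted p = 3.7e-04). TRIB3, a pseudokinase that restrains AKT, was at 29.2, 29.9 and 28.1 CPM in control and 132, 292 and 312 CPM in activin + HGF libraries (log2 fold change 3.08 ± 0.33, edgeR adjusted p = 1.4e-04). SLC7A5, the leucine transporter LAT1 and one of the 3 members of highest FPKM, was at 461, 610 and 477 CPM in control and 1817, 2063 and 1933 CPM in activin + HGF libraries (log2 fold change 1.91 ± 0.23, edgeR adjusted p = 2.5e-04). PSAT1, of serine synthesis, was at 130, 171 and 136 CPM in control and 343, 431 and 517 CPM in activin + HGF libraries (log2 fold change 1.56 ± 0.19, edgeR adjusted p = 2.8e-04). The median of the activin step was 1.29 and that of the HGF step 0.20.

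The element that ATF4 dimers bind, TGATGNAA on either strand, lies in the 250 bases before the start of 3 of the 14 higher members with a promoter in the RefSeq table (21.4%), against 1.43% of 11519 promoters of tested protein-coding genes and 3.19% of all 27305. The pieces of the CHAC1 and ATF3 promoters are shown because they hold that element, in capitals, with up to 50 bases on each side, read on the strand of the gene from GRCh38.p14 at chr15:40953221-40953319 (plus strand) and chr1:212565166-212565273 (plus strand). A match of letters is a description and does not show binding.
CHAC1: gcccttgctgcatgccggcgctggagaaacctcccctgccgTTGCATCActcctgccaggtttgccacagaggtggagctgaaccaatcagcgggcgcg
ATF3: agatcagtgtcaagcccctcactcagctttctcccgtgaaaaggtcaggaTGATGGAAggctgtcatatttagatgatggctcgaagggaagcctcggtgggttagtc

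Among adhesion genes, 13 of 28 matrix genes (46.4%) and 15 of 26 protease genes (57.7%) were higher, against 11.3% of all genes. Of adherens junction and desmosome genes 6.25% were higher, and of tight junction genes 22.2%. Of 16 adherens junction and desmosome genes 1 was higher and 0 lower, with a median of 0.16 that became -0.09 with library totals. PERP, a desmosomal protein, was at 272, 239 and 276 CPM in control and 730, 518 and 539 CPM in activin + HGF libraries (log2 fold change 1.18 ± 0.17, edgeR adjusted p = 7.1e-04). CDH1, which encodes E-cadherin, was at 100, 68 and 99.6 CPM in control and 132, 127 and 182 CPM in activin + HGF libraries. Its groups did not overlap but it was not called (log2 fold change 0.72 ± 0.25, edgeR adjusted p = 0.052). Among 18 tight junction genes 4 were higher and 0 lower (median 0.71), and 2 higher and 2 lower with library totals. Without control library 1 or control library 3, 2 were higher. CLDN7 was at 60, 54.1 and 51.1 CPM in control and 365, 212 and 329 CPM in activin + HGF libraries (log2 fold change 2.45 ± 0.27, edgeR adjusted p = 1.8e-04). CLDN3 was at 11.5, 11.7 and 10.6 CPM in control and 22.5, 37.6 and 39.8 CPM in activin + HGF libraries (log2 fold change 1.56 ± 0.30, edgeR adjusted p = 0.0037). CLDN4 jumped between replicates, from 4.31 to 178 CPM in control and from 4.91 to 781 CPM in activin + HGF libraries, and was not called (1.16). The calls of CLDN12 and CXADR were lost when any 1 of 6 and of 4 libraries, respectively, was left out.

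Integrins gave 6 higher and 1 lower of 19, with a median of 0.62, and 3 higher with library totals. ITGA3, a laminin receptor chain, was at 270, 294 and 281 CPM in control and 1126, 1186 and 1188 CPM in activin + HGF libraries. The treated libraries were close to each other and 4.14-fold the control (log2 fold change 2.05 ± 0.19, edgeR adjusted p = 7.1e-05). ITGB1, the common beta chain, was at 481, 302 and 336 CPM in control and 1199, 1213 and 782 CPM in activin + HGF libraries (log2 fold change 1.51 ± 0.26, edgeR adjusted p = 0.0017). Of 28 matrix protein genes 13 were higher and 3 lower, with a median of 1.19, and 14 higher of 30 tested without activin + HGF library 1. LAMB3, a laminin chain of basement membranes, was at 53, 57 and 57.1 CPM in control and 978, 619 and 530 CPM in activin + HGF libraries (log2 fold change 3.67 ± 0.27, edgeR adjusted p = 2.3e-05), a 12.7-fold rise. CCN1, a matricellular protein, was at 10.4, 16.2 and 12.8 CPM in control and 309, 56.9 and 55.1 CPM in activin + HGF libraries (log2 fold change 3.42 ± 0.62, edgeR adjusted p = 0.0026), and 2.09 without library 1. COL6A2, a chain of collagen VI, was at 98, 105 and 103 CPM in control and 274, 252 and 208 CPM in activin + HGF libraries (log2 fold change 1.26 ± 0.18, edgeR adjusted p = 7.5e-04). COL12A1 was at 150, 120 and 132 CPM in control and 55.4, 55.8 and 44.6 CPM in activin + HGF libraries and was lower (log2 fold change -1.37 ± 0.22, edgeR adjusted p = 0.0013).

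Plasminogen activation and matrix protease genes were higher in 15 of 26 and lower in 0, with a median of 1.10 (10 higher, median 1.12, without activin + HGF library 1). The urokinase receptor and a collagenase were higher at very different levels. PLAUR, the urokinase receptor, was at 18.1, 24.5 and 26 CPM in control and 233, 141 and 142 CPM in activin + HGF libraries (log2 fold change 2.91 ± 0.29, edgeR adjusted p = 1.0e-04). MMP1, an interstitial collagenase, was at 0.0653, 0.0446 and 0.0994 CPM in control and 8.82, 4.54 and 5.13 CPM in activin + HGF libraries (log2 fold change 6.41 ± 0.76, edgeR adjusted p = 2.4e-04). Its control libraries had 4, 3 and 8 counts, under the floor, so the size of that fold change is uncertain. The protease inhibitor genes TIMP1 and TIMP3 were higher too. TIMP1 was at 88.3, 107 and 91.2 CPM in control and 524, 475 and 441 CPM in activin + HGF libraries (log2 fold change 2.33 ± 0.21, edgeR adjusted p = 5.9e-05). TIMP3 was at 6.27, 8.09 and 7.95 CPM in control and 59.1, 39.2 and 40.1 CPM in activin + HGF libraries (log2 fold change 2.63 ± 0.23, edgeR adjusted p = 5.3e-05).

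Mesenchymal genes did not move as one. Of 12 tested 5 were higher and 1 lower, and the median was 0.69. SNAI1, a repressor of E-cadherin, was at 13.2, 16.6 and 12.7 CPM in control and 101, 41 and 40.4 CPM in activin + HGF libraries (log2 fold change 2.10 ± 0.39, edgeR adjusted p = 0.003), or 1.52 without activin + HGF library 1. VIM, vimentin, was at 4.98, 22 and 20.8 CPM in control and 4.41, 1.76 and 1.4 CPM in activin + HGF libraries. Control library 1 was near the treated libraries and control libraries 2 and 3 were far above them, without overlap, and the gene was lower (log2 fold change -2.66 ± 0.59, edgeR adjusted p = 0.0071). ZEB1 overlapped and was not called (-0.31), and S100A4, the member of highest FPKM, had a log2 fold change of -0.57.

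Genes of DNA replication and mitosis were lower in most members. Of 43 DNA replication genes 0 were higher and 31 lower, and all 43 had a log2 fold change under 0. The median was -1.44, with -1.09 for the activin step and -0.36 for the HGF step, and 29 were lower without activin + HGF library 1. The libraries of the 2 groups did not overlap for 42 of the 43, against 53.8% of all genes tested. MCM4, a subunit of the helicase that opens DNA, was at 241, 243 and 238 CPM in control and 26.5, 30.3 and 28.8 CPM in activin + HGF libraries. The treated libraries were far under the control libraries, an 8.44-fold decrease (log2 fold change -3.08 ± 0.17, edgeR adjusted p = 5.6e-06). The other helicase genes fell by less than MCM4. MCM3 was at 308, 327 and 319 CPM in control and 66.6, 78.2 and 82.9 CPM in activin + HGF libraries (log2 fold change -2.07 ± 0.16, edgeR adjusted p = 3.2e-05). MCM7 was at 393, 410 and 386 CPM in control and 113, 116 and 136 CPM in activin + HGF libraries (log2 fold change -1.70 ± 0.18, edgeR adjusted p = 1.2e-04). GINS2, part of the same helicase complex, was at 50.7, 52.5 and 49.5 CPM in control and 7, 6.86 and 7.08 CPM in activin + HGF libraries (log2 fold change -2.87 ± 0.20, edgeR adjusted p = 1.9e-05). In these 3 genes, too, the treated libraries were close to each other. PCNA, the polymerase clamp and the member of highest FPKM, was at 295, 275 and 281 CPM in control and 116, 122 and 137 CPM in activin + HGF libraries (log2 fold change -1.18 ± 0.16, edgeR adjusted p = 6.1e-04). CDC45, the third part of the helicase, was at 25.7, 30.5 and 26.9 CPM in control, 8.83, 12.8 and 12.7 CPM in activin and 1.87, 4.8 and 4.07 CPM in activin + HGF libraries (log2 fold change -2.95 ± 0.33, edgeR adjusted p = 2.0e-04).

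Some promoters of these genes hold an element that the counts did not use. An E2F-type element (TTTGGCGC, TTTCCCGC, TTTCGCGC or TTTGCCGC, either strand) lay within 250 bases before the start of 11 of the 27 lower replication genes with a promoter in the RefSeq table (40.7%) and 12 of the 37 tested (32.4%), against 4.23% of tested protein-coding genes and 2.79% of all promoters. The stretches that hold it in MCM3, MCM7, PCNA and GINS2 are given because these genes carry the result above. The element is in capitals, on the strand of the gene, from GRCh38.p14 at chr6:52284859-52284966, chr7:100101398-100101634, chr20:5126624-5126731 and chr16:85688955-85689035, all on the minus strand.
MCM3: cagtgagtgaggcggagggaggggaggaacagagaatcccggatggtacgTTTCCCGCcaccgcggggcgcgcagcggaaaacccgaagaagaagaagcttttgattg
MCM7: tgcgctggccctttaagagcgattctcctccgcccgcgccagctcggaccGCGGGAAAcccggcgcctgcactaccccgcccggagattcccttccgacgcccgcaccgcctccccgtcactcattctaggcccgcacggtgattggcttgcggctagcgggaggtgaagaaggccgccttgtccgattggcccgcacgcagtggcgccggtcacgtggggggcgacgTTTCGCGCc
PCNA: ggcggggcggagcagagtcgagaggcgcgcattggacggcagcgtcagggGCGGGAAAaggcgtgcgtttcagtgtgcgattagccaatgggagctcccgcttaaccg
GINS2: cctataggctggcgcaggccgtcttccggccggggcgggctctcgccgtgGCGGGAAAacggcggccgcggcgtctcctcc

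Mitosis genes followed. Of 36 tested 0 were higher and 26 lower, with a median of -1.39 (25 lower, with the same median, without activin + HGF library 1), and the steps divided the other way, with -0.53 for activin and -0.82 for HGF. MKI67, which coats mitotic chromosomes and marks cycling cells, was at 616, 542 and 548 CPM in control, 235, 128 and 238 CPM in activin and 72.9, 78.5 and 28.6 CPM in activin + HGF libraries. The 3 groups lay in that order without overlap (log2 fold change -3.24 ± 0.38, edgeR adjusted p = 2.3e-04 for the end state). Genes of the spindle were lower too. HMMR, of the spindle, was at 45.5, 40.2 and 42.8 CPM in control and 4.06, 7.71 and 10.4 CPM in activin + HGF libraries (log2 fold change -2.54 ± 0.33, edgeR adjusted p = 4.5e-04). KIF11, the motor that parts spindle poles, was at 59.9, 53.6 and 52.3 CPM in control and 8.17, 15.1 and 12.3 CPM in activin + HGF libraries (log2 fold change -2.22 ± 0.33, edgeR adjusted p = 8.8e-04). AURKA, a spindle pole kinase, was at 93.8, 91.7 and 89.1 CPM in control and 11.6, 22 and 24.7 CPM in activin + HGF libraries (log2 fold change -2.24 ± 0.26, edgeR adjusted p = 2.2e-04). CDC20, an activator of the anaphase-promoting complex, was at 215, 261 and 206 CPM in control and 249, 237 and 241 CPM in activin + HGF libraries. Its groups overlapped and it was not called (log2 fold change 0.09 ± 0.21, edgeR adjusted p = 0.78). UBE2C, which works with the same complex, was also not called (-0.00).

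The core of the CHR element, TTTGAA on either strand, was found before 16 of the 24 lower mitosis genes with a promoter (66.7%) and 18 of the 31 tested (58.1%), against 8.49% of tested protein-coding genes and 13.6% of all promoters. CCAAT was found in 25 of the 31 (80.6%) against 34.7%. Pieces of 3 promoters of lower genes are set beside that of CDC20, which holds the same letters and was not called. They come from GRCh38.p14 at chr10:128126424-128126520 (minus strand), chr5:163460554-163460631, chr10:92593052-92593129 and chr1:43358753-43358971 (plus strand), with the element in capitals.
MKI67: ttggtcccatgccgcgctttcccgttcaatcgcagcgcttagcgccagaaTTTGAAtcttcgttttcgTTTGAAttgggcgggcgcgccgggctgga
HMMR: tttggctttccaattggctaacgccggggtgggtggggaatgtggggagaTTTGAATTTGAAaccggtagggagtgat
KIF11: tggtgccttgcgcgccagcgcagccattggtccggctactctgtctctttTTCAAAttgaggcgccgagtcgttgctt
CDC20: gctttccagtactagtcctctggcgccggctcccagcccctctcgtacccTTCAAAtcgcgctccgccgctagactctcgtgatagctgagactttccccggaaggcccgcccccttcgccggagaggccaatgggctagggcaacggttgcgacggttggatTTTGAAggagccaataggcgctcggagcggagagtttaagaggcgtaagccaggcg

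Cell cycle inhibitors and p53 targets divided. Of 28 tested 10 were higher and 5 lower, with a median of 0.19 that became -0.07 with library totals. CDKN1A, which encodes p21, was at 199, 228 and 198 CPM in control and 678, 592 and 694 CPM in activin + HGF libraries. The groups were separate (log2 fold change 1.65 ± 0.20, edgeR adjusted p = 2.8e-04). CDKN1C, which encodes p57, was at 5.65, 6.14 and 5.33 CPM in control, 36.7, 57.7 and 26 CPM in activin and 239, 103 and 101 CPM in activin + HGF libraries, a 25.9-fold rise (log2 fold change 4.69 ± 0.42, edgeR adjusted p = 5.9e-05). GDF15, a secreted stress factor, was at 122, 143 and 133 CPM in control and 1308, 1362 and 1432 CPM in activin + HGF libraries (log2 fold change 3.37 ± 0.23, edgeR adjusted p = 1.6e-05). Among the lower genes, FAS, a death receptor, was at 13.5, 13.3 and 13.6 CPM in control and 3.31, 3.13 and 3.32 CPM in activin + HGF libraries (log2 fold change -2.05 ± 0.36, edgeR adjusted p = 0.0022). DDB2, of DNA repair, was at 54, 60.3 and 40.2 CPM in control and 19.1, 18.7 and 19.8 CPM in activin + HGF libraries (log2 fold change -1.42 ± 0.20, edgeR adjusted p = 6.9e-04).

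**Figure D3:**
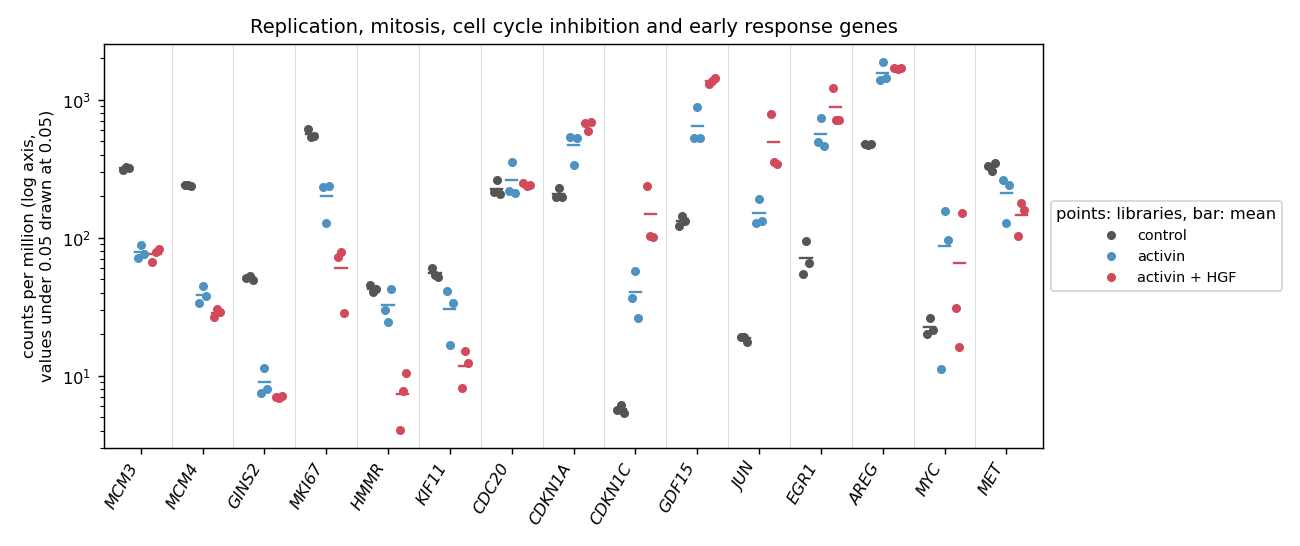
CPM (log axis) of DNA replication and mitosis genes (MCM3 to CDC20), cell cycle inhibitors and a p53 target (CDKN1A to GDF15), early response genes and an EGF family ligand (JUN to AREG), MYC and MET, with 1 point per library and a bar at each group mean. The replication genes are already low after activin, HMMR and KIF11 are lowest after activin + HGF, and MYC is scattered.

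Genes of the ERK pathway and immediate early genes were higher in 15 of 26 and lower in 1, with a median of 1.66 (15 higher and 0 lower without activin + HGF library 1). JUN was at 19, 19.2 and 17.5 CPM in control, 127, 191 and 133 CPM in activin and 789, 355 and 341 CPM in activin + HGF libraries. Activin + HGF library 1 was well above libraries 2 and 3, and the log2 fold change was 4.74 with it and 4.23 without it (adjusted p = 2.7e-05 and 1.3e-05 from edgeR). EGR1 was at 54.5, 94.1 and 65.3 CPM in control and 1220, 717 and 713 CPM in activin + HGF libraries (log2 fold change 3.63 ± 0.32, edgeR adjusted p = 5.3e-05). FOSL1 was at 31, 39.6 and 32.7 CPM in control and 380, 245 and 227 CPM in activin + HGF libraries (log2 fold change 3.04 ± 0.29, edgeR adjusted p = 7.7e-05). AREG, an EGF family ligand, was at 481, 470 and 480 CPM in control and 1703, 1667 and 1713 CPM in activin + HGF libraries (log2 fold change 1.83 ± 0.16, edgeR adjusted p = 4.8e-05). MET, the HGF receptor, was the lower gene, at 334, 304 and 348 CPM in control and 103, 179 and 160 CPM in activin + HGF libraries (log2 fold change -1.16 ± 0.28, edgeR adjusted p = 0.011). Without activin + HGF library 1 its log2 fold change was -0.95, short of the limit.

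Targets of activin and TGF-beta signalling were higher in 6 of 17 and lower in 0 (median 1.06). PMEPA1, which restrains SMAD signalling, was at 0.98, 0.952 and 1.24 CPM in control, 7.43, 9.62 and 7.31 CPM in activin and 52.4, 24.5 and 23.6 CPM in activin + HGF libraries (log2 fold change 4.98 ± 0.37, edgeR adjusted p = 2.3e-05). SMAD7, the inhibitory SMAD, was at 5.67, 5.5 and 6.19 CPM in control and 20.6, 18.7 and 15.7 CPM in activin + HGF libraries (log2 fold change 1.66 ± 0.24, edgeR adjusted p = 7.1e-04). FSTL3, which binds activin, was at 24, 23.8 and 25 CPM in control and 62.7, 73.7 and 63.6 CPM in activin + HGF libraries (log2 fold change 1.46 ± 0.28, edgeR adjusted p = 0.0037). ID1, ID2 and ID3, which answer BMP more than activin, were not called (0.76, -0.34 and -0.45).

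Genes of the translation machinery did not move as one. Of 83 cytosolic ribosomal protein genes 28 were higher and 0 lower, with a median of 0.79, which was -0.10 for the activin and 0.90 for the HGF step. With library totals 11 were higher, from FPKM 9, and without activin + HGF library 1 18. RPS12 was at 813, 808 and 809 CPM in control and 3065, 1943 and 2196 CPM in activin + HGF libraries (log2 fold change 1.57 ± 0.20, edgeR adjusted p = 3.5e-04). RPS20 was at 482, 470 and 498 CPM in control and 1836, 1248 and 1392 CPM in activin + HGF libraries (log2 fold change 1.63 ± 0.19, edgeR adjusted p = 2.1e-04). Their values are uncertain because processed pseudogenes share their sequence. Of 35 ribosome biogenesis factors 0 were higher and 11 lower (median -0.66), and NOP56, a core protein of box C/D particles, was at 262, 255 and 267 CPM in control and 63.9, 80.7 and 86.1 CPM in activin + HGF libraries (log2 fold change -1.77 ± 0.16, edgeR adjusted p = 6.9e-05). Mitochondrial ribosomal protein genes gave 5 higher and 10 lower of 78, with a median of -0.36. The 19.2% called was close to the 21.5% of all genes. With library totals 1 was higher and 18 lower, without activin + HGF library 1 6 were lower, and without control library 1 3 were higher. MRPL1 was at 28.6, 16.4 and 25.8 CPM in control and 4.59, 6.3 and 6.08 CPM in activin + HGF libraries (log2 fold change -2.06 ± 0.26, edgeR adjusted p = 3.3e-04). MRPL41 was at 27.1, 37.3 and 32.3 CPM in control and 94.1, 71.8 and 82.3 CPM in activin + HGF libraries (log2 fold change 1.36 ± 0.21, edgeR adjusted p = 0.001).

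Outside these groups, 2 of the 10 largest rises and 2 of the 10 largest falls are given. VGF, a secreted neuropeptide precursor, was at 4.21, 6.6 and 5.27 CPM in control and 379, 244 and 237 CPM in activin + HGF libraries (log2 fold change 5.74 ± 0.34, edgeR adjusted p = 6.4e-06). TMEM158, a RAS-induced membrane protein, was at 13.2, 15.6 and 14.8 CPM in control, 99, 162 and 98.1 CPM in activin and 695, 508 and 436 CPM in activin + HGF libraries (log2 fold change 5.23 ± 0.29, edgeR adjusted p = 5.6e-06). Of the falls, CYP24A1, which degrades active vitamin D, was at 112, 111 and 114 CPM in control and 3.1, 9.54 and 11.6 CPM in activin + HGF libraries (log2 fold change -3.79 ± 0.41, edgeR adjusted p = 1.5e-04). POP1, a protein of RNase P, was at 63.9, 59.9 and 52.6 CPM in control and 6.43, 8.61 and 6.05 CPM in activin + HGF libraries (log2 fold change -3.06 ± 0.21, edgeR adjusted p = 1.6e-05). HMGA1, a chromatin protein, was at 1225, 1760 and 1266 CPM in control and 9149, 8236 and 8139 CPM in activin + HGF libraries (log2 fold change 2.59 ± 0.26, edgeR adjusted p = 1.0e-04), and was one of the 3 most abundant protein-coding genes called higher.

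The share of counts held by several RNA classes differed between the groups, with classes taken from GENCODE v29 for 32930 of the 33861 genes. Protein-coding genes took 79.1%, 77.2% and 77.0% of counts in the control and 81.5%, 81.4% and 81.2% in the activin + HGF libraries. Mitochondrial mRNA was at 16.3%, 18.1% and 18.2% in control and at 9.93%, 12.1% and 12.5% after treatment, 0.656 times control. Mitochondrial rRNA was at 1.67%, 1.75% and 1.83% in control and at 5.18%, 3.30% and 3.01% after treatment, 2.19 times control, or 1.80 times without library 1. The groups did not overlap for these 3 classes, and each two-sided exact permutation test gave p = 0.1, the smallest that 3 libraries against 3 allow (0.17 adjusted over 15 classes). MT-RNR2, the large mitochondrial rRNA, was at 12529, 13807 and 14099 CPM in control and 57308, 32205 and 30574 CPM in activin + HGF libraries (log2 fold change 1.57 ± 0.23, edgeR adjusted p = 8.4e-04). Libraries were made after rRNA depletion, and its part in this difference was not tested.

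Mitochondrial tRNA genes moved apart by gene. Together they took 0.0752%, 0.0879% and 0.0837% of counts in control and 0.116%, 0.188% and 0.172% after activin + HGF, while 4 of the 22 genes were higher and 11 lower. MT-TN was at 112, 126 and 129 CPM in control and 392, 545 and 501 CPM in activin + HGF libraries (log2 fold change 1.97 ± 0.22, edgeR adjusted p = 1.8e-04). MT-TI was at 16.7, 15.2 and 19 CPM in control and 0.569, 1.03 and 1.33 CPM in activin + HGF libraries (log2 fold change -4.12 ± 0.34, edgeR adjusted p = 4.3e-05). MT-TC, MT-TN and MT-TY, the most abundant of the higher ones, lie on the light strand, and MT-TI, MT-TV and MT-TL1, the lower ones named by the same rule, on the heavy strand. These tRNAs border mRNAs and rRNAs in longer transcripts, so reads of unprocessed RNA cannot be told from tRNA.

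Replication-dependent histone genes, whose RNA has no poly(A) tail, took 0.00824%, 0.00698% and 0.00792% of counts in control and 0.0438%, 0.0200% and 0.0183% after activin + HGF, 3.55 times control, or 2.48 times without library 1. Of 34 tested 10 were higher and 0 lower, against 8 higher and 1 lower of 36 without activin + HGF library 1. H1-2 was at 13.7, 10.5 and 15.1 CPM in control and 137, 63.5 and 63.5 CPM in activin + HGF libraries (log2 fold change 2.75 ± 0.33, edgeR adjusted p = 2.6e-04). H2BC5 was at 8.75, 7.18 and 11.1 CPM in control and 72.3, 47.9 and 42.5 CPM in activin + HGF libraries (log2 fold change 2.59 ± 0.26, edgeR adjusted p = 1.0e-04). H2BC21 was at 0.768, 1.65 and 0.609 CPM in control and 91.9, 10.5 and 7.95 CPM in activin + HGF libraries, with a log2 fold change of 5.19, or 3.19 without library 1. H2AC18 and H2AC19 are near-identical copies and their values are uncertain. The snoRNA share was 0.00567%, 0.00501% and 0.00527% in control and 0.0251%, 0.00896% and 0.00870% after treatment, 2.68 times control, or 1.66 times without library 1, and 23 of 90 snoRNA genes tested were higher and 0 lower. SNORD58B was at 7.22, 6.72 and 7.06 CPM in control and 54.7, 24.5 and 32.9 CPM in activin + HGF libraries (log2 fold change 2.42 ± 0.28, edgeR adjusted p = 2.2e-04), and reads of its host transcript can be counted with it.

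Long noncoding RNA took 0.901%, 0.852% and 0.869% of counts in control and 1.27%, 1.19% and 1.18% after treatment, with 286 of 3754 genes higher and 329 lower. GAS5, a snoRNA host transcript known to accumulate in growth-arrested cells, was at 101, 106 and 101 CPM in control, 391, 390 and 458 CPM in activin and 1472, 838 and 952 CPM in activin + HGF libraries. The groups did not overlap (log2 fold change 3.40 ± 0.23, edgeR adjusted p = 1.6e-05). SNHG29, another snoRNA host, was at 357, 414 and 399 CPM in control and 1057, 868 and 922 CPM in activin + HGF libraries (log2 fold change 1.28 ± 0.18, edgeR adjusted p = 7.0e-04). SNHG4 was at 67.7, 64.9 and 62.3 CPM in control and 26.4, 22.4 and 21.8 CPM in activin + HGF libraries and was lower (log2 fold change -1.47 ± 0.18, edgeR adjusted p = 2.7e-04). Pseudogenes took 1.92%, 1.99% and 1.95% in control and 1.87%, 1.74% and 1.83% after treatment by counts, a difference that was not separate by FPKM (two-sided exact permutation test, p = 0.4). MIR1244-1, which makes up most of the microRNA precursor class, has several copies and overlaps a pseudogene family, so its values are uncertain.

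**Figure D4:**
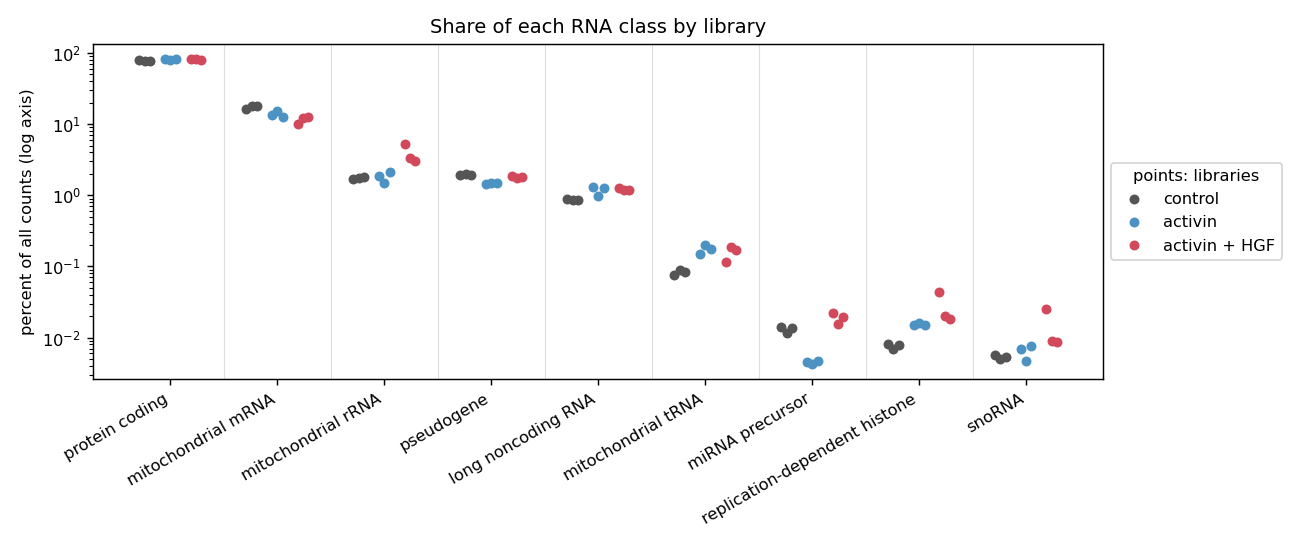
Percent of all counts (log axis) taken by each RNA class, with 1 point per library in grey (control), blue (activin) and red (activin + HGF). Mitochondrial mRNA is lower and mitochondrial rRNA, histone RNA and snoRNA are higher after activin + HGF, with library 1 the highest point of the last 3.

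Fold changes varied with transcript length and GC content, over 14686 tested protein-coding genes divided into 5 bins of equal size. The shortest bin (192 to 2074 bases) had a median log2 fold change of 0.27, with 18.3% of its genes higher and 5.89% lower. The longest bin (5830 to 109224 bases) had a median of -0.22, with 7.66% higher and 15.5% lower. By GC the lowest bin (30.2% to 41.3%) had a median of -0.21 and the highest (58.9% to 74.7%) 0.47, with 24.9% higher and 4.19% lower. The 3 activin + HGF libraries had the same slope in GC, from -0.20, -0.22 and -0.22 in the lowest to 0.35, 0.52 and 0.49 in the highest bin, and activin library 2 had a steeper one (-0.55 to 0.61) than activin libraries 1 and 3. With the median of each gene's own GC bin subtracted, the list medians were -1.23 for DNA replication, -1.22 for mitosis, 1.60 for ATF4 targets and 0.82 for cytosolic ribosomal proteins. The same step took the apolipoprotein median from 1.38 to 0.90, that of matrix proteins from 1.19 to 0.87 and that of tight junctions from 0.71 to 0.41. It took that of definitive endoderm from 0.65 to 0.23 and that of cell cycle inhibitors and p53 targets from 0.19 to 0.02. With length bins instead, the medians were -1.52 for DNA replication, -1.44 for mitosis, 1.55 for ATF4 targets and 0.62 for cytosolic ribosomal proteins (0.79 before). What part library preparation had in the slope was not tested.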

How the data were processed

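Total RNA from 9 libraries of HCT116 cells was sequenced after rRNA depletion. Per the labels, the authors used cutadapt 1.9, HISAT2 2.0.4 and StringTie 1.3.4d, and the genome build and the counting settings are not given in the sources used here. The deposited table gives whole-number counts per gene without normalization, and FPKM, which the authors scaled by transcript length and library size. All 18 value columns were matched to samples by name, and 0 other columns of values were left out.

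Counts of all 9 libraries, with 3 per group, were fitted with edgeR 4.0.16 (R 4.3.3) by the quasi-likelihood test with 1 mean per group, after filterByExpr and trimmed mean scaling, and p-values were adjusted by the Benjamini-Hochberg method over the 20988 genes tested. In simulated data the test called 50% of genes set to an absolute log2 fold change of 1.5 and 83% of those set to 3. Of the genes it called 5% were false, and a gene not called may still differ. DESeq2 1.42.0, limma 3.58.1 on log2(FPKM + 0.1), other scalings and filters, and the fit without each library were run as alternatives. Shares of RNA classes were compared by two-sided exact permutation tests, with p-values adjusted by the Benjamini-Hochberg method in SciPy 1.17.1. Gene classes were taken from GENCODE v29, and promoter sequences from RefSeq (GRCh38.p14). Depth ranged from 57453977 to 77016167 counts in the 6 libraries compared, and their number limits the precision more than counting error except for genes of few counts.

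Genes were named by rule: the 10 largest called rises and falls among protein-coding genes without overlap and with at least 5 FPKM in the higher group; in each list, up to 5 called members of largest fold change per direction with at least 1 FPKM and the 3 members of highest FPKM; defining genes of liver, intestine, epithelium and growth; and the 3 most abundant called genes per direction in each RNA class. The gene lists and members were chosen with earlier results of these data known. The text gives part of the 334 genes so named, and some results are not reported here. Same-numbered libraries did not deviate together (correlations of -0.00352, -0.0452 and -0.00889). Differently numbered libraries were not compared in this way, so whether the numbers pair the samples is not known.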

Additional observations from a re-analysis of the deposited data

How the results depend on the processing

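The count of called genes was 4519, of which 2378 were higher and 2141 lower, and most alternatives stayed within 1.5 times of it. DESeq2 called 5124, another size factor 4537, no filter 4203, a minimum of 1 CPM 4133, and the 6 libraries alone 4444. By limma on log2(FPKM + 0.1), 1291 genes were higher. With a pseudocount of 1, 2238 were called, 822 higher and 1416 lower. An adjusted p under 0.01 left 2973 calls, 1221 of them lower. Leaving out each library gave 3537 to 4488 calls, 1858 to 2361 higher and 1556 to 2127 lower. With the replicate block, 4222 genes were called (2224 higher, 1998 lower), and whether the numbers pair the libraries is not known. Of the 255 named genes called, 209 kept the call without each of the 6 libraries in turn.

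Lists with a median of at least 1 in size numbered 16, and 9 by limma on log2(FPKM + 0.1). With library totals, 35 DNA replication, 29 mitosis and 16 ribosome biogenesis genes were lower, and 13 ATF4 targets, 13 ERK pathway genes, 11 matrix genes, 11 protease genes and 9 plasma protein genes were higher. The long noncoding share was 1.39 times control by counts and 1.74 times by FPKM, and the protein-coding share 1.05 and 1.20 times. No named gene that was called reversed direction. Medians of the glycolysis, nuclear oxidative phosphorylation, cholesterol, fatty acid synthesis, junction, Wnt and p53 lists changed sign with library totals or FPKM, those of the mucin and fibroblast lists with FPKM (fibroblast also with a minimum of 1 CPM), and those of the definitive endoderm, enteroendocrine, cholesterol and glycolysis lists in a fit without 1 library. The causes of these shifts were not tested. For genes with under about 12 counts in a group the size of a fold change is uncertain.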

Other observations

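Genes controlled by NRF2, the factor of the oxidative stress response, were higher in 12 of 18 and lower in 0, with a median log2 fold change of 2.09, and the count was also 12 without activin + HGF library 1. HMOX1, which degrades heme, was at 26.7, 30.8 and 28.2 CPM in control and 154, 213 and 242 CPM in activin + HGF libraries (log2 fold change 2.83 ± 0.27, edgeR adjusted p = 7.2e-05). NQO1, a quinone reductase, was at 279, 290 and 300 CPM in control and 1020, 1306 and 1303 CPM in activin + HGF libraries (log2 fold change 2.06 ± 0.18, edgeR adjusted p = 4.9e-05). The libraries of each group were close together for both genes. The ferritin genes FTL and FTH1 were among the 3 most abundant protein-coding genes called higher (2.90 and 2.54), but both have processed pseudogenes and their values are uncertain. The NRF2 element TGACNNNGC, on either strand, was present in 3 of 14 promoters of the list (21.4%) against 11.9% of tested protein-coding genes.

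Cytokine genes showed 11 higher and 0 lower of 19 (7 higher without control library 3, and 7 with library totals), and the steps had medians of opposite sign, 2.74 for activin and -1.19 for HGF. CXCL8, a neutrophil chemokine, was at 0.457, 0.55 and 0.36 CPM in control, 59.9, 60.3 and 63.6 CPM in activin and 27.2, 12.1 and 16.1 CPM in activin + HGF libraries. The activin libraries held the highest values (log2 fold change 5.34 ± 0.34, edgeR adjusted p = 1.2e-05 at the end). IL11 was at 0.947, 1.13 and 1.7 CPM in control and 13.1, 11.4 and 9.61 CPM in activin + HGF libraries (log2 fold change 3.17 ± 0.28, edgeR adjusted p = 5.9e-05). Complement and its regulators gave 7 higher and 1 lower of 16, and 4 higher without control library 1 or control library 2. CD55, which protects cells from complement, was at 31.1, 30.5 and 34.1 CPM in control and 451, 272 and 237 CPM in activin + HGF libraries (log2 fold change 3.33 ± 0.25, edgeR adjusted p = 2.4e-05). Hypoxia-responsive genes gave 9 higher and 1 lower of 18. NDRG1 was at 102, 136 and 107 CPM in control and 1637, 1170 and 1198 CPM in activin + HGF libraries (log2 fold change 3.54 ± 0.25, edgeR adjusted p = 1.9e-05) and STC2, a secreted glycoprotein, had a log2 fold change of 2.96. Lysosomal genes gave 7 higher and 1 lower of 27, and CTSL, a cathepsin, was at 71.4, 65.7 and 68.7 CPM in control and 317, 233 and 246 CPM in activin + HGF libraries (log2 fold change 1.95 ± 0.17, edgeR adjusted p = 5.3e-05).

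Of 15 heat shock genes tested 4 were higher and 0 lower, but 2 were higher and 2 lower without activin + HGF library 1, and 2 were higher without control library 1 or control library 3. HSPA8, the constitutive chaperone, was at 1498, 1494 and 1537 CPM in control, 202, 242 and 170 CPM in activin and 9784, 2540 and 1834 CPM in activin + HGF libraries. With library 1 the log2 fold change was 1.64 (edgeR adjusted p = 0.032), and without it 0.54 (edgeR adjusted p = 0.069). HSPA1B, whose copy HSPA1A is near identical, had a log2 fold change of 2.74, and of 1.08 without library 1.

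HOX genes gave 2 higher and 6 lower of 34, or 23.5% called, close to the 21.5% of all genes. HOXB9 was at 21.5, 25.4 and 23.5 CPM in control and 39.7, 68.1 and 68.2 CPM in activin + HGF libraries (log2 fold change 1.32 ± 0.26, edgeR adjusted p = 0.0038) and HOXB7 at 36, 36.4 and 40.1 CPM in control and 12.2, 17.3 and 17.8 CPM in activin + HGF libraries (log2 fold change -1.25 ± 0.23, edgeR adjusted p = 0.0028). Zinc finger protein genes whose symbol begins with ZNF gave 10 higher and 93 lower of 390, with a median of -0.69 (6 higher and 123 lower with library totals, 11 and 70 without activin + HGF library 1, 7 and 60 without control library 3). With the median of each gene's length bin subtracted, the list median was -0.61, and -0.58 for GC bins. ZNF37A was at 37.1, 30.1 and 36.1 CPM in control and 2.35, 6.05 and 6.07 CPM in activin + HGF libraries (log2 fold change -2.83 ± 0.38, edgeR adjusted p = 5.3e-04), and ZNF24 at 17.3, 16.5 and 17.3 CPM in control and 160, 99.4 and 93.5 CPM in activin + HGF libraries (log2 fold change 2.79 ± 0.41, edgeR adjusted p = 8.7e-04).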
